A study of Mus musculus with 9 samples.

Results

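The 36 genes described here act in the G2 phase and in mitosis, the stretch of the cell cycle in which a cell commits to division and separates its chromosomes. They were chosen by symbol, from the transcription factor gene Foxm1 and the kinase gene Cdk1 to the proliferation marker gene Mki67, and all 36 were found among the 51826 genes counted and had counts enough to be tested. Polyadenylated RNA of RAW 264.7, an established mouse line of macrophage type that divides continuously in culture, was sequenced in 3 groups of 3 libraries that the labels call biological replicates. Nothing in the labels says that these were separate cultures, so p-values measure only the spread between these libraries, which may be technical. Vehicle cells received solvent alone. LPS cells received lipopolysaccharide, a part of the bacterial outer membrane that TLR4 senses, for 6 h at 300 ng/mL. Calycosin plus LPS cells were first kept for 24 h with 100 µg/mL calycosin, an isoflavone of Astragalus root, and then given LPS at the same dose for the same time. No group received calycosin without LPS, and all libraries came from a single cell line. The study's stated question was whether calycosin acts against inflammation in macrophages.

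Entry into mitosis is driven by the kinase CDK1 bound to a B-type cyclin, which phosphatases of the CDC25 family switch on. The genes for this machinery are transcribed together late in the cycle, through complexes of the MuvB core with B-MYB and FOXM1 that bind the CHR element of their promoters, often beside CCAAT boxes bound by NF-Y. During mitosis the anaphase-promoting complex, with its activator CDC20, marks securin and mitotic cyclins for destruction. Macrophages given LPS are known to slow or stop dividing.

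Total counts per library were 31285425 to 35138718 in vehicle, 27784737 to 31038241 in LPS and 33925342 to 38524105 in calycosin plus LPS cells. The share of mitochondrially encoded genes was 3.79% and 3.68% in vehicle replicates 1 and 2 but 21.9% in vehicle replicate 3. It was 13.0% to 14.7% in the LPS libraries, and 17.2%, 7.45% and 19.4% in calycosin plus LPS replicates 1, 2 and 3. Vehicle replicate 3 and replicate 2 of calycosin plus LPS were therefore unlike the rest of their groups, and the member calls that turn on them are named beside the results. All 8 macrophage markers checked were expressed, summing to 4840 to 5140 CPM (counts relative to an effective library size) with vehicle, 4770 to 4940 CPM with LPS and 3460 to 4030 CPM with calycosin plus LPS. Markers of T cells, neutrophils and epithelium had too few counts to be tested. Among them Cd3g, Cd8a, S100a9, Ly6g, Epcam, Krt8 and Krt18 had no counts in any library. Lists of B cell, fibroblast and endothelial markers summed to levels far below the macrophage list, and these moved with the groups. The B cell sum was 0.0803 to 0.243 CPM with vehicle, 9.33 to 43.8 CPM with LPS and 3.36 to 10.2 CPM with calycosin plus LPS, of which Pax5 alone could be tested. The fibroblast sum was 0.0402 to 0.226, 1.29 to 3.64 and 0.125 to 0.259 CPM, and the endothelial sum 0.391 to 0.852, 4.15 to 6.27 and 0.845 to 1.17 CPM. Pax5, Pdgfrb of the fibroblast list and Cdh5 of the endothelial list were called higher in LPS over vehicle and lower in calycosin plus LPS over LPS. Their part in the member values was not tested.

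Promoters of the members are shown first, since CHR and CCAAT letters are the known mark of this gene class. RefSeq promoter windows of build GRCm38.p6, from 250 bases before to 50 bases after the annotated start, were at hand for 29 of the 36 members, in 31 windows. The letters of the CHR element, TTTGAA or TTCAAA on the other strand, occurred in 22 of the 31 windows, which is 71.0%. Of all 32851 windows 17.9% held them. The letters of the CCAAT box, CCAAT or ATTGG on the other strand, occurred in 24 member windows (77.4%) and in 37.4% of all windows. Both stood together in 20 member windows (64.5%) and in 6.95% of all windows. Matches of the 2 motifs shared a base in 1 of the member windows, and a match is a description of the letters, not of a bound site. No window was at hand for Foxm1, Aurkb, Ccna2, Cdc25c, Incenp, Kif20a and Tpx2. The 7 stretches below, each 120 bases long, are given 5′ to 3′ on the gene's own strand, with the motif letters in capitals. They were chosen after the values were seen, and up to 30 of their bases lie inside the gene as GENCODE M21 draws it. Espl1 had the largest fall with LPS, Cdc20 the lowest fold change with calycosin plus LPS against LPS, and Kif11, Top2a and Cdk1 are the motor, the topoisomerase and the kinase at the core of mitosis. Ube2c carries both motifs and did not pass the main test in any comparison, and Cenpe carries no CHR letters and was called higher with LPS. Both results depended on the fit. With LPS over vehicle Ube2c was called lower in 4 of 19 alternative fits, and the Cenpe call held in 6.
Espl1 (chr15:102296173-102296292, plus strand): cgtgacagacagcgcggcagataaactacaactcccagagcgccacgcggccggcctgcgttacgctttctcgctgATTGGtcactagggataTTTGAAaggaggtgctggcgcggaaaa
Kif11 (chr19:37376262-37376381, plus strand): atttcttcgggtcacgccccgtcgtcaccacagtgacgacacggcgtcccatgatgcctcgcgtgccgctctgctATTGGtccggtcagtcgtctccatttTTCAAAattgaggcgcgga
Top2a (chr11:99024190-99024309, minus strand): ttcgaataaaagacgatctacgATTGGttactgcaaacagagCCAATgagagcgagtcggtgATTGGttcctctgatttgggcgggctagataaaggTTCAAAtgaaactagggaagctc
Cdk1 (chr10:69352913-69353032, minus strand): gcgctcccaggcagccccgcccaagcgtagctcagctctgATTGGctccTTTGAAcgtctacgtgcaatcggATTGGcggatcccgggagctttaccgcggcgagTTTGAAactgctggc
Cdc20 (chr4:118437344-118437463, minus strand): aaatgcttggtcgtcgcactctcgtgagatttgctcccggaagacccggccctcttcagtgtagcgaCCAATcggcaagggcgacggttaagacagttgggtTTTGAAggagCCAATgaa
Ube2c (chr2:164769808-164769927, plus strand): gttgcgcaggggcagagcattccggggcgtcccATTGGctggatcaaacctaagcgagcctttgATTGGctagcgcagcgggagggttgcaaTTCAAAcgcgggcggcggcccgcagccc
Cenpe (chr3:135212443-135212562, plus strand): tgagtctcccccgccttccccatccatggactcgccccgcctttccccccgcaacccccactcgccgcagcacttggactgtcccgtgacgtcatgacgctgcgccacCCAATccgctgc

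The CHR letters of Espl1 began 27 bases and those of Kif11 19 bases before the start, each with a CCAAT box further up, at 44 and 45 bases. Cdc20 had the CHR letters at 18 bases between CCAAT letters at 53 and at 8 bases. Top2a held the CHR letters at 23 and 179 bases and CCAAT letters at 6 places. Of the 29 members with a window, 18 held both motifs in a single window, and 15 of these 18 were called lower with LPS than with vehicle, with a median log2 fold change of -1.29. Over all genes tested 28.9% were called lower and 27.3% higher. Of the other 11 members 8 were lower and 2 higher, with a median of -1.15. Of the 7 members with no window 6 were lower, with a median of -1.40. The members Birc5, Mad2l1, Nuf2, Nusap1 and Pttg1 had no exact match of either motif's letters in their windows. Only exact letters were searched, so variants of the motifs would be missed. Birc5 was among the 5 members with the largest fall with LPS.

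**Figure D1:**
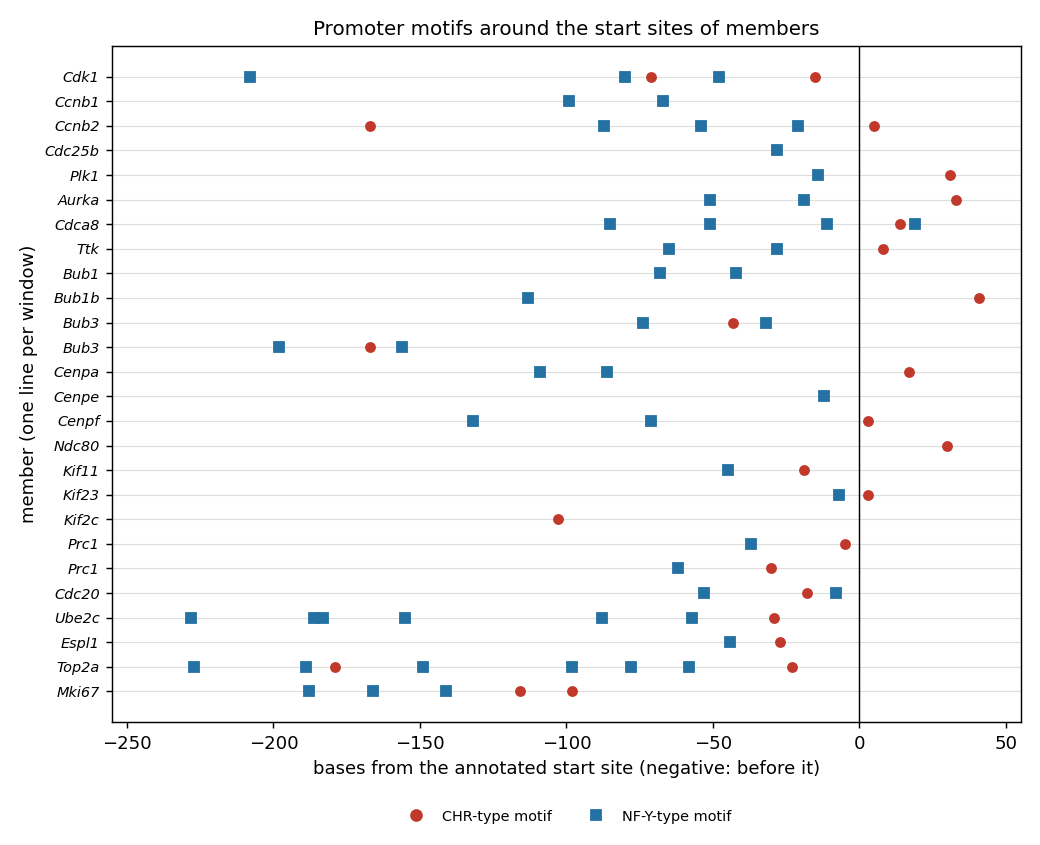
Positions of the CHR-type (circles) and NF-Y-type (squares) promoter motifs in the member windows that hold at least 1 of them, in bases from the annotated start on the horizontal axis, with 1 line per window and the start at 0. Of the 78 matches 46 begin within 100 bases before the start, and in Espl1 the square lies at 44 and the circle at 27 bases. Sites shared by the overlapping windows of Prc1, and by those of Bub3, are counted once per window.

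In vehicle cells every member was expressed. Scaled for transcript length, in TPM, the mean level ran from 9.49 ± 3.20 TPM (SD, n = 3) for the phosphatase gene Cdc25c to 136.6 ± 3.81 TPM for Ube2c, the ubiquitin-conjugating enzyme of the anaphase-promoting complex. Next in order stood Top2a at 97.4 ± 23.5 TPM, Bub3 at 94.3 ± 33.3 TPM, Incenp at 91.6 ± 12.03 TPM and Mki67 at 91.1 ± 8.69 TPM, which did not differ from each other beyond their spread. Together the members held 0.301%, 0.304% and 0.285% of the counts of vehicle replicates 1, 2 and 3. Their share was 0.0882%, 0.0956% and 0.104% in the LPS replicates. With calycosin plus LPS it was 0.141%, 0.156% and 0.148%. The 3 groups did not overlap, and the 95% Wilson interval of a share, which covers counting error only, was narrow, as from 0.2996% to 0.3032% in vehicle replicate 1. In CPM, with effective library sizes from edgeR's TMM (trimmed mean of M-values) factors, the members summed to 2328.2 ± 332.2 in vehicle, 1204.4 ± 83.5 in LPS and 1520.2 ± 125.3 in calycosin plus LPS cells. Bulk RNA cannot tell fewer cells in G2 and mitosis from less RNA of these genes per cell.

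**Figure D2:**
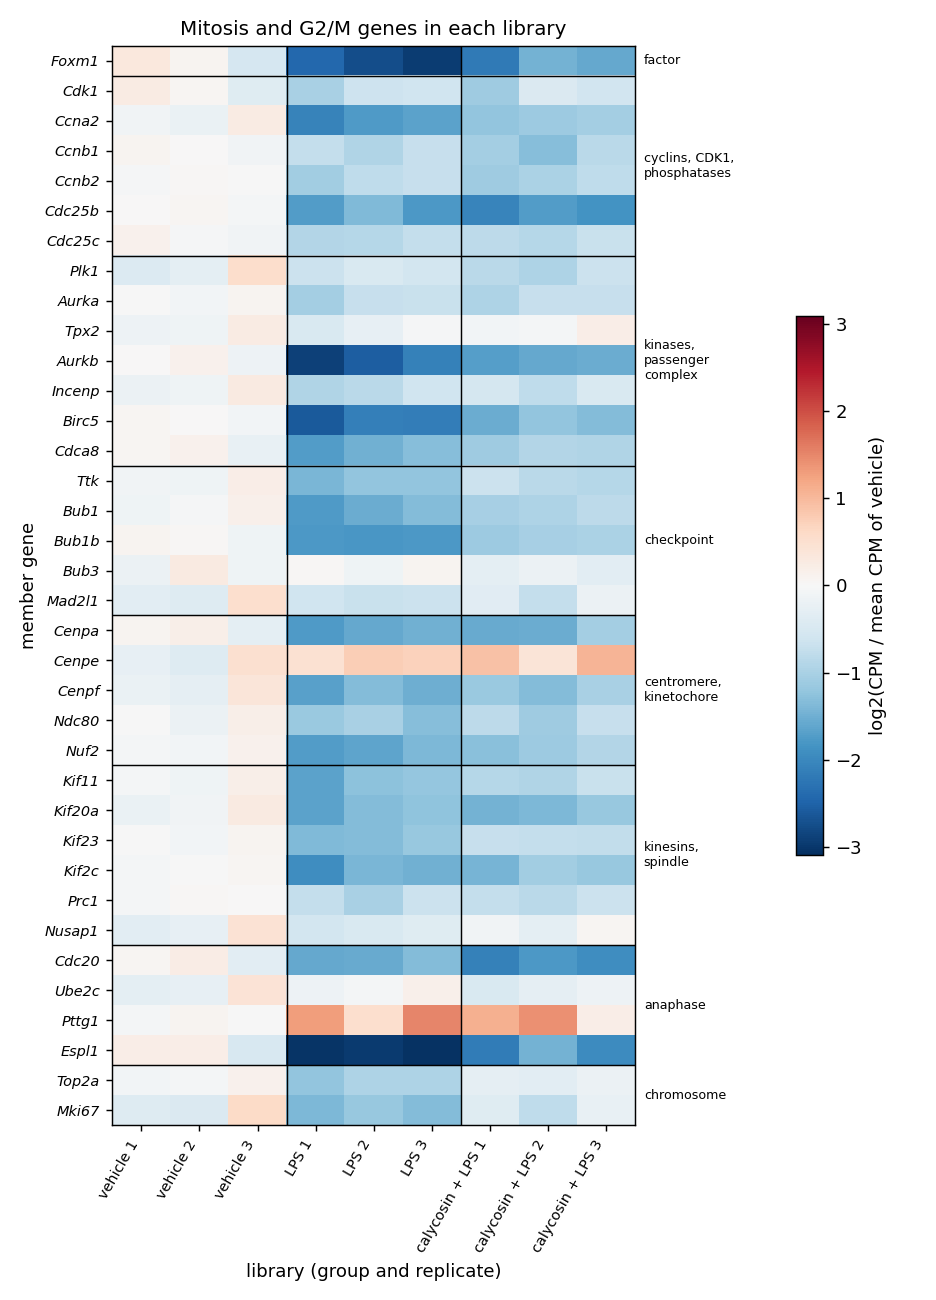
Level of each member in each library, as the log2 of its CPM over the mean CPM of the vehicle group (colour scale), with members in lines grouped by role and the 9 libraries in columns. Espl1 and Foxm1 are darkest in the LPS columns, the calycosin plus LPS columns are paler for most members, and Cenpe and Pttg1 stand out as higher than vehicle.

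The comparison of LPS with vehicle measured what 6 h of LPS did to dividing cells without calycosin. Of the 36 members 29 were lower with LPS, 2 were higher and 5 did not pass, with edgeR's quasi-likelihood test over 14458 genes and a threshold of 0.05 on the p adjusted by Benjamini-Hochberg. Over all genes tested 28.9% were lower and 27.3% higher. The median log2 fold change of the members was -1.29, and that of all genes tested was -0.07. In 31 members all 3 LPS libraries lay below all 3 vehicle libraries, and in 1, Pttg1, all lay above, whereas 31.3% and 29.5% of all genes tested did so.

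**Figure D3:**
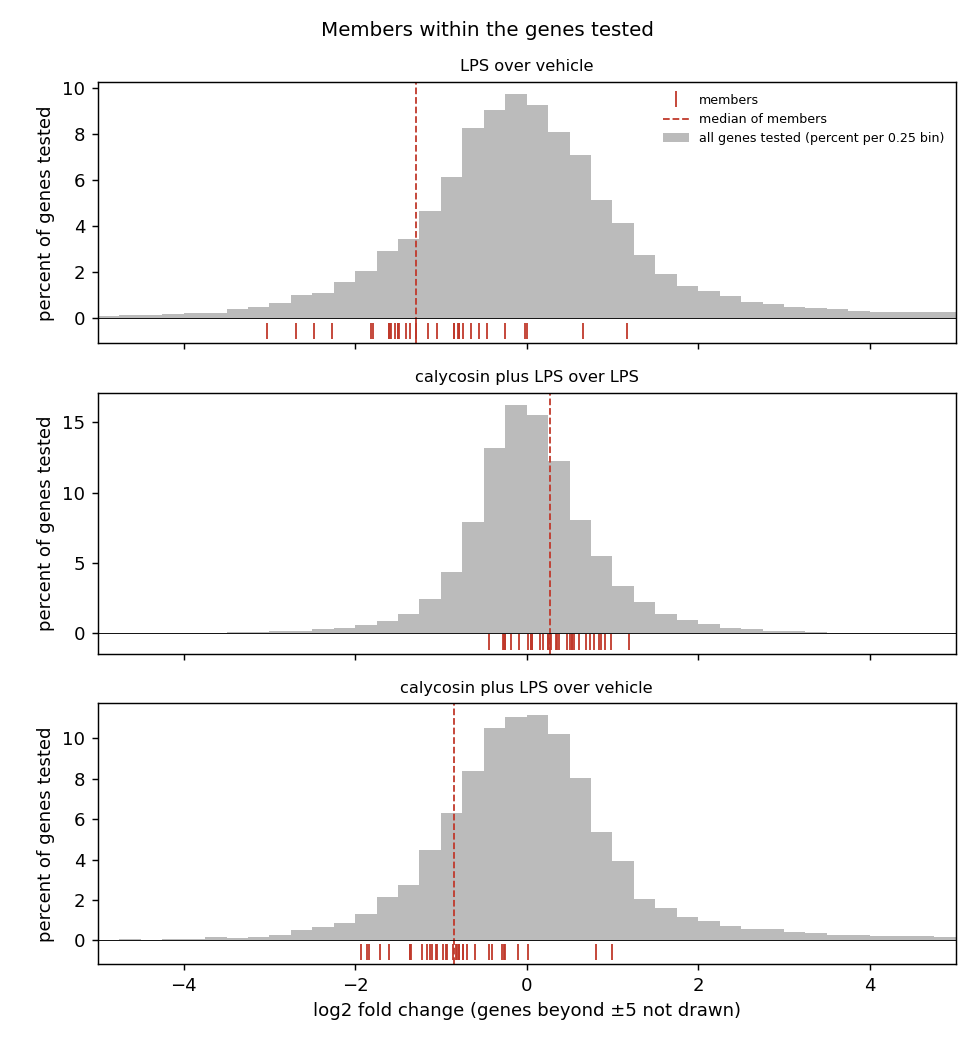
Distribution of log2 fold changes of all genes tested (grey bars, percent of genes per bin) in the 3 comparisons, with each member as a red tick and the members' median as a dashed line. The members' median lies at -1.29 for LPS over vehicle, 0.28 for calycosin plus LPS over LPS and -0.85 for calycosin plus LPS over vehicle.

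Foxm1 (ENSMUSG00000001517, chromosome 6: 128362967 to 128376146), which encodes the transcription factor that drives G2 and mitotic genes, had 70.5, 59.95 and 39.4 CPM in vehicle replicates 1, 2 and 3 and 10.6, 8.37 and 7.31 CPM in the LPS replicates. Every LPS library was below every vehicle library. The log2 fold change was -2.70 (SE 0.27, adjusted p = 2.16e-05), a 6.48-fold fall and the second largest among the members.

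All 6 genes of the cyclins, CDK1 and its phosphatases were lower with LPS. Cdk1 itself (ENSMUSG00000019942, chromosome 10: 69335146 to 69352938) had 46.1, 40.5 and 29.6 CPM in the vehicle and 19.4, 24.7 and 25.2 CPM in the LPS libraries. The lowest vehicle library, replicate 3, was close to the highest LPS library, and the log2 fold change was -0.75 (SE 0.21, adjusted p = 0.0140). Ccna2 (chromosome 3: 36564865 to 36572150), whose cyclin A2 partners CDK2 and CDK1 from S phase to early mitosis, had 85.9, 80.0 and 110.4 CPM with vehicle and 22.0, 27.2 and 29.0 CPM with LPS. It fell 3.53-fold (log2 fold change -1.82, SE 0.16, adjusted p = 7.71e-06) and was the largest fall of this role. Ccnb1 (ENSMUSG00000041431, chromosome 13: 100778650 to 100786570), which encodes the main mitotic cyclin, had 58.8, 55.8 and 50.9 CPM in the vehicle and 33.3, 28.9 and 33.4 CPM in the LPS libraries. The groups lay well apart, and the log2 fold change was -0.79 (SE 0.14, adjusted p = 0.00109). Its sister cyclin gene Ccnb2 changed by -0.85 on the log2 scale. The CDK1-activating phosphatase genes Cdc25b and Cdc25c changed by -1.61 and -0.85.

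Of the 7 mitotic kinase and chromosomal passenger genes 5 were lower with LPS. Plk1 (ENSMUSG00000030867, chromosome 7: 122159439 to 122169873), the polo-like kinase that acts from mitotic entry to cytokinesis, had 52.0, 57.0 and 101.6 CPM in the vehicle and 44.5, 50.6 and 47.6 CPM in the LPS libraries. Vehicle replicate 3 stood far above the other 2 vehicle libraries, and the log2 fold change of -0.56 (SE 0.23, adjusted p = 0.0611) did not pass. Aurka, the spindle pole kinase, changed by -0.80 on the log2 scale, while Tpx2, which activates it on microtubules, did not pass (-0.25, adjusted p = 0.201). The passenger complex corrects wrong attachments of chromosomes, and all 4 of its genes were lower. Aurkb (chromosome 11: 69045647 to 69051664), its kinase, had 24.4, 26.6 and 21.6 CPM with vehicle and 3.23, 4.14 and 5.65 CPM with LPS. This was a 5.56-fold fall (log2 fold change -2.48, SE 0.20, adjusted p = 4.9e-06). Birc5 (chromosome 11: 117849251 to 117855743), which encodes survivin, had 31.1, 29.7 and 28.01 CPM with vehicle and 4.87, 6.85 and 6.65 CPM with LPS. It fell 4.83-fold (log2 fold change -2.27, SE 0.16, adjusted p = 2.07e-06), with a small spread in both groups. The scaffold genes Cdca8 and Incenp changed by -1.50 and -0.79 on the log2 scale.

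The spindle checkpoint holds back anaphase until every chromosome is attached. Of its 5 genes Ttk, Bub1 and Bub1b, the kinases and the kinase-like inhibitor of the checkpoint, were lower with LPS, with log2 fold changes of -1.29, -1.54 and -1.79. Bub1b had 97.7, 94.5 and 84.4 CPM in the vehicle libraries and 26.8, 26.4 and 27.0 CPM in the LPS libraries, the smallest coefficient of variation of any member with LPS (0.970%). Mad2l1, which encodes the checkpoint protein MAD2, had 51.5, 49.5 and 93.6 CPM with vehicle and 42.5, 39.9 and 41.1 CPM with LPS (log2 fold change -0.66, adjusted p = 0.0420). Bub3, which tethers the checkpoint kinases to kinetochores, stood at 96.4 ± 17.6 and 96.2 ± 7.74 CPM (SD, n = 3), a log2 fold change of -0.002 with an SE of 0.14 (adjusted p = 0.990).

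Of the 5 centromere and kinetochore genes 4 were lower with LPS. These were the centromeric histone gene Cenpa (-1.61 on the log2 scale), Cenpf (-1.51), and Nuf2 and Ndc80, whose products form the microtubule-binding complex of the kinetochore (-1.58 and -1.15). The fifth was Cenpe (ENSMUSG00000045328, chromosome 3: 135212537 to 135273611), the kinesin that brings chromosomes to the spindle middle. It had 48.1, 43.4 and 81.0 CPM in the vehicle and 79.4, 97.8 and 94.97 CPM in the LPS libraries, so the groups overlapped through vehicle replicate 3. The log2 fold change was 0.66 (SE 0.25, adjusted p = 0.0440).

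Motors and bundlers of the spindle fell as well, 5 of 6. The log2 fold changes were -1.36 for Kif11, the motor that pushes the spindle poles apart, -1.60 for the microtubule depolymerase gene Kif2c, and -1.40, -1.29 and -0.79 for Kif20a, Kif23 and Prc1, which build the central spindle for cytokinesis. Nusap1, which stabilises microtubules near chromosomes, did not pass (-0.46, adjusted p = 0.0779), although all of its LPS libraries lay below its vehicle libraries.

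The 4 genes of anaphase and mitotic exit went different ways. Espl1 (chromosome 15: 102296266 to 102324357) encodes separase, the protease that cuts cohesin to let the chromatids part. It had 51.4, 51.5 and 31.96 CPM in the vehicle libraries and 5.46, 5.74 and 5.36 CPM in the LPS libraries. The 8.14-fold fall (log2 fold change -3.02, SE 0.24, adjusted p = 4.81e-06) was the largest of the 36. Pttg1 (ENSMUSG00000020415, chromosome 11: 43420250 to 43426251) encodes securin, which holds separase inactive until anaphase. Its level was 14.3, 15.7 and 14.8 CPM with vehicle and 36.8, 21.4 and 42.9 CPM with LPS, a change of 1.17 on the log2 scale (SE 0.32, adjusted p = 0.0103). Every LPS library was above every vehicle library, with replicate 2 the lowest of the LPS libraries. Cdc20, the activator of the anaphase-promoting complex, changed by -1.49 on the log2 scale. Ube2c stood at 60.4 ± 18.1 and 59.6 ± 6.74 CPM (adjusted p = 0.949).

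Both chromosome proteins were lower with LPS. Top2a (ENSMUSG00000020914, chromosome 11: 98992943 to 99024189), the topoisomerase that untangles sister DNA, had 171.1, 173.1 and 198.7 CPM in the vehicle and 77.4, 93.0 and 93.1 CPM in the LPS libraries. The log2 fold change was -1.04 (SE 0.12, adjusted p = 4.78e-05), with the groups far apart. Mki67 (ENSMUSG00000031004, chromosome 7: 135689784 to 135716361), which coats mitotic chromosomes and encodes the marker Ki-67, had 321.8, 311.8 and 642.1 CPM with vehicle and 162.5, 189.4 and 168.9 CPM with LPS. All LPS libraries were lower, and the log2 fold change was -1.29 (SE 0.27, adjusted p = 0.00282).

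**Figure D4:**
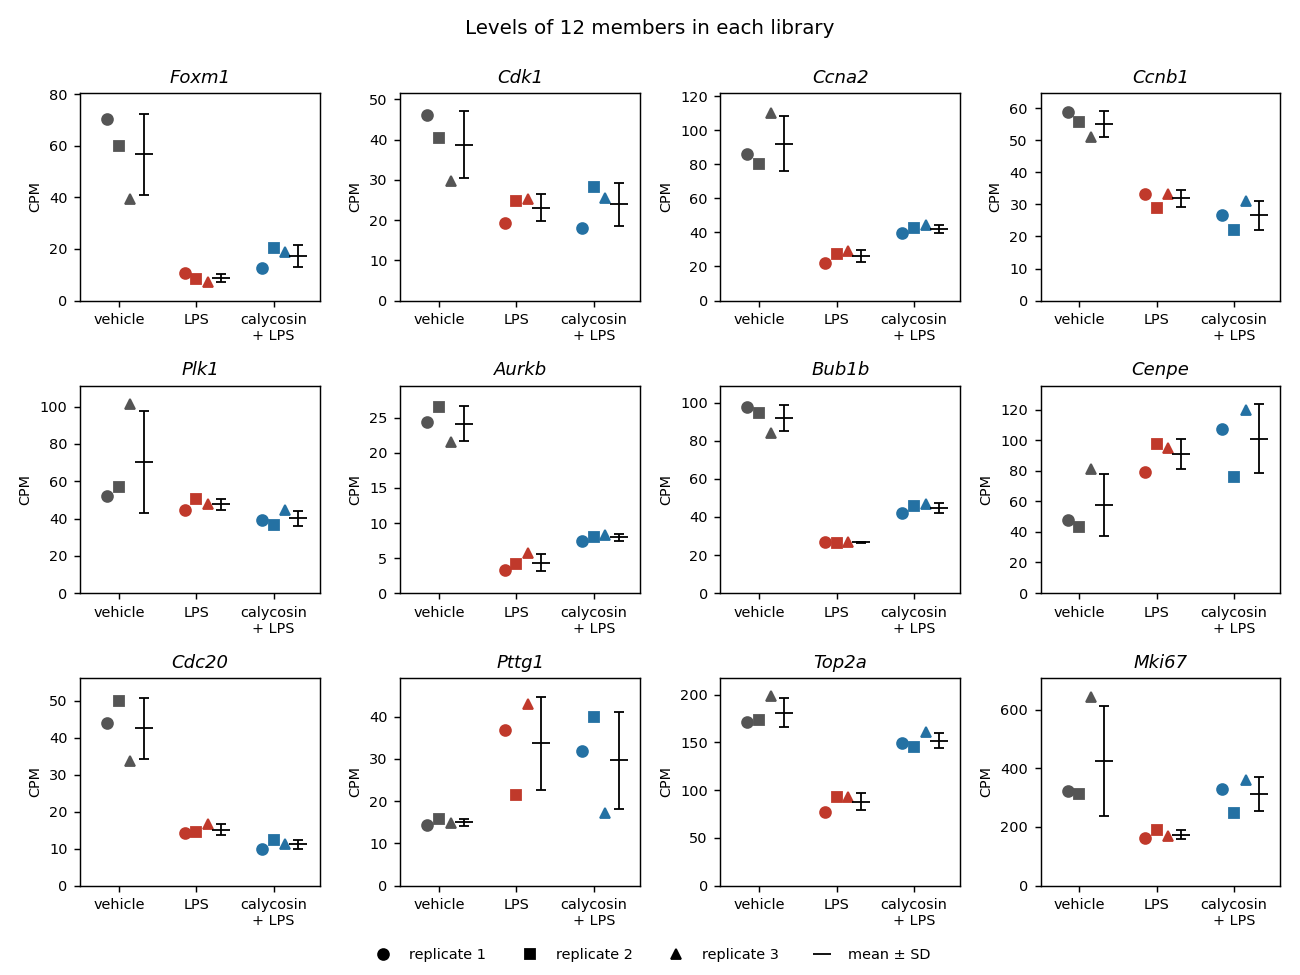
CPM of 12 members in each library (symbols by replicate) with the mean and SD of each group beside them, on axes that start at 0. Vehicle replicate 3 (triangle) lies far above the other vehicle libraries for Mki67, Plk1 and Cenpe and below them for Foxm1, and the LPS libraries of Bub1b lie between 26.4 and 27.0 CPM.

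Vehicle replicate 3, the library with 21.9% mitochondrial counts, moved some of these values. On the TMM scale it was higher than the mean of vehicle replicates 1 and 2 in 21 members and lower in 15. It was over 1.5 times higher for Mki67 (2.03 times), Plk1 (1.86), Mad2l1 (1.85), Cenpe (1.77), Nusap1 (1.65), Ube2c (1.63) and Cenpf (1.54), and at 0.603 and 0.621 times for Foxm1 and Espl1. Vehicle replicate 2 stood between 0.850 and 1.38 times replicate 1 for all members. These ratios rest on TMM factors of 1.418, 1.42 and 1.052 in vehicle replicates 1, 2 and 3. Of total counts, the members held 0.285% in replicate 3, below the 0.3014% and 0.3045% of replicates 1 and 2. How much of the ratios comes from the scaling was not tested. Of the 29 lower calls 27 held in all 19 alternative fits. Mad2l1 missed the threshold without vehicle replicate 3 or any 1 LPS library (adjusted p = 0.0678, 0.0902, 0.109 and 0.1), and Cdk1 without LPS replicate 1 (adjusted p = 0.0582) and in the mitochondrial comparison that follows. Plk1 passed without vehicle replicate 1 or 2 (log2 fold change -0.77 and -0.73, adjusted p = 0.0159 and 0.0314) and stood at -0.25 without replicate 3. Nusap1 passed without vehicle replicate 1 or 2 (-0.63 and -0.61, adjusted p = 0.0298 and 0.0412) and stood at -0.23 without replicate 3 (adjusted p = 0.15). Without replicate 3 the log2 fold change of Mad2l1 was -0.35, that of Mki67 -0.92 (adjusted p = 0.000567) and that of Cenpe 0.93 (adjusted p = 0.00188).

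Among the libraries with over 10% mitochondrial counts, a comparison added after the data were seen that leaves 1 vehicle library and assumes it to vary like the others, 30 members were lower with LPS in edgeR's test and neither Cenpe nor Pttg1 passed. Plk1 then changed by -1.11 (adjusted p = 0.000472), Mki67 by -1.90 and Cdk1 by -0.37 (adjusted p = 0.247). For Cenpe and Pttg1 the changes were 0.15 and 1.18 (adjusted p = 0.463 and 0.0842). Scaling to total counts, also added afterwards, moved the median log2 fold change of all genes tested from -0.07 to -0.77. On that scale the members' median was -1.95, a difference of -1.18 from all genes, beside -1.22 on the TMM scale. With total counts the 34 members other than Cenpe and Pttg1 were lower, among them Tpx2, Bub3 and Ube2c, and neither of these 2 passed. Of all genes 7744 were then lower and 1879 higher. Pttg1 then stood at 0.47 (adjusted p = 0.283) and Cenpe at 0.01 (adjusted p = 0.948), and Cenpe turned to -0.13 in limma on log2(TPM + 1). The call for Cenpe was also lost without vehicle replicate 1 or 2 and without any 1 LPS library, with adjusted p from 0.0562 to 0.162, and it held without vehicle replicate 3.

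Calycosin plus LPS cells were next set against LPS cells, to see which members the pretreatment moved. Of the 36 members 14 were higher with calycosin plus LPS, 0 were lower and 22 did not pass in edgeR's test. Over all genes tested 16.1% were higher and 12.9% lower. At an unadjusted p below 0.05 the members counted 15 higher and 1 lower, and DESeq2 called 14 higher and 1 lower, Cdc20 in both cases. The members' median log2 fold change was 0.28, beside 0.02 for all genes. In 15 members all calycosin plus LPS libraries were above all LPS libraries and in 3 (Bub3, Cdc20 and Ube2c) all were below, while 26.3% and 23.4% of all genes tested did so.

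Espl1 had 9.93, 16.2 and 11.7 CPM in calycosin plus LPS replicates 1, 2 and 3, above the 5.36 to 5.74 CPM of the LPS libraries. Its rise was the largest, 2.28-fold (log2 fold change 1.19, SE 0.23, adjusted p = 0.00477). Foxm1 had 12.5, 20.4 and 19.0 CPM (log2 fold change 0.98, SE 0.26, adjusted p = 0.0189). Its lowest library, replicate 1, was close to the highest LPS library at 10.6 CPM. Birc5 had 10.3, 12.8 and 11.7 CPM (log2 fold change 0.92, SE 0.16, adjusted p = 0.00257). Aurkb had 7.45, 8.03 and 8.32 CPM (log2 fold change 0.87, SE 0.20, adjusted p = 0.00921). For both passenger genes the groups lay apart, yet the levels stayed far under those of vehicle cells. Mki67 had 330.6, 246.1 and 360.3 CPM (log2 fold change 0.85, SE 0.27, adjusted p = 0.0415). Top2a had 149.5, 145.1 and 160.9 CPM (log2 fold change 0.79, SE 0.12, adjusted p = 0.00120), with no overlap with the LPS libraries.

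The other 8 genes that rose were Bub1b (log2 fold change 0.74, adjusted p = 0.000807), Ccna2 (0.69), Bub1 (0.61), Kif23 (0.55), Kif11 and Cdca8 (0.53 each), Ttk (0.50) and Nuf2 (0.48). Thus 3 of 5 checkpoint genes rose, 2 of 6 spindle genes, 3 of 7 kinase and passenger genes and 1 of 5 kinetochore genes. The last count was near the 16.1% called higher over all genes tested. The passenger genes that rose were Aurkb, Birc5 and Cdca8, and the fourth, Incenp, did not pass (0.19, adjusted p = 0.380).

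Of the core entry machinery only Ccna2 rose, 1 of the 6 cyclin, CDK1 and phosphatase genes, also near the 16.1% of all genes tested. Cdk1 had 17.9, 28.2 and 25.5 CPM with calycosin plus LPS, on both sides of the LPS libraries (log2 fold change 0.05, SE 0.21, adjusted p = 0.885). Ccnb1 had 26.8, 22.0 and 31.0 CPM (log2 fold change -0.26, SE 0.14, adjusted p = 0.198). Plk1 had 39.2, 36.3 and 44.5 CPM (log2 fold change -0.25, SE 0.23, adjusted p = 0.448). In all 3 genes the groups overlapped. Ccnb2, Cdc25b, Cdc25c and Aurka lay between -0.25 and 0.06 on the log2 scale, and none passed. Cdc20 had 9.90, 12.5 and 11.1 CPM, below the 14.3 to 16.8 CPM of the LPS libraries, and its log2 fold change of -0.44 (SE 0.17, adjusted p = 0.0764) was the lowest among the members.

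**Figure D5:**
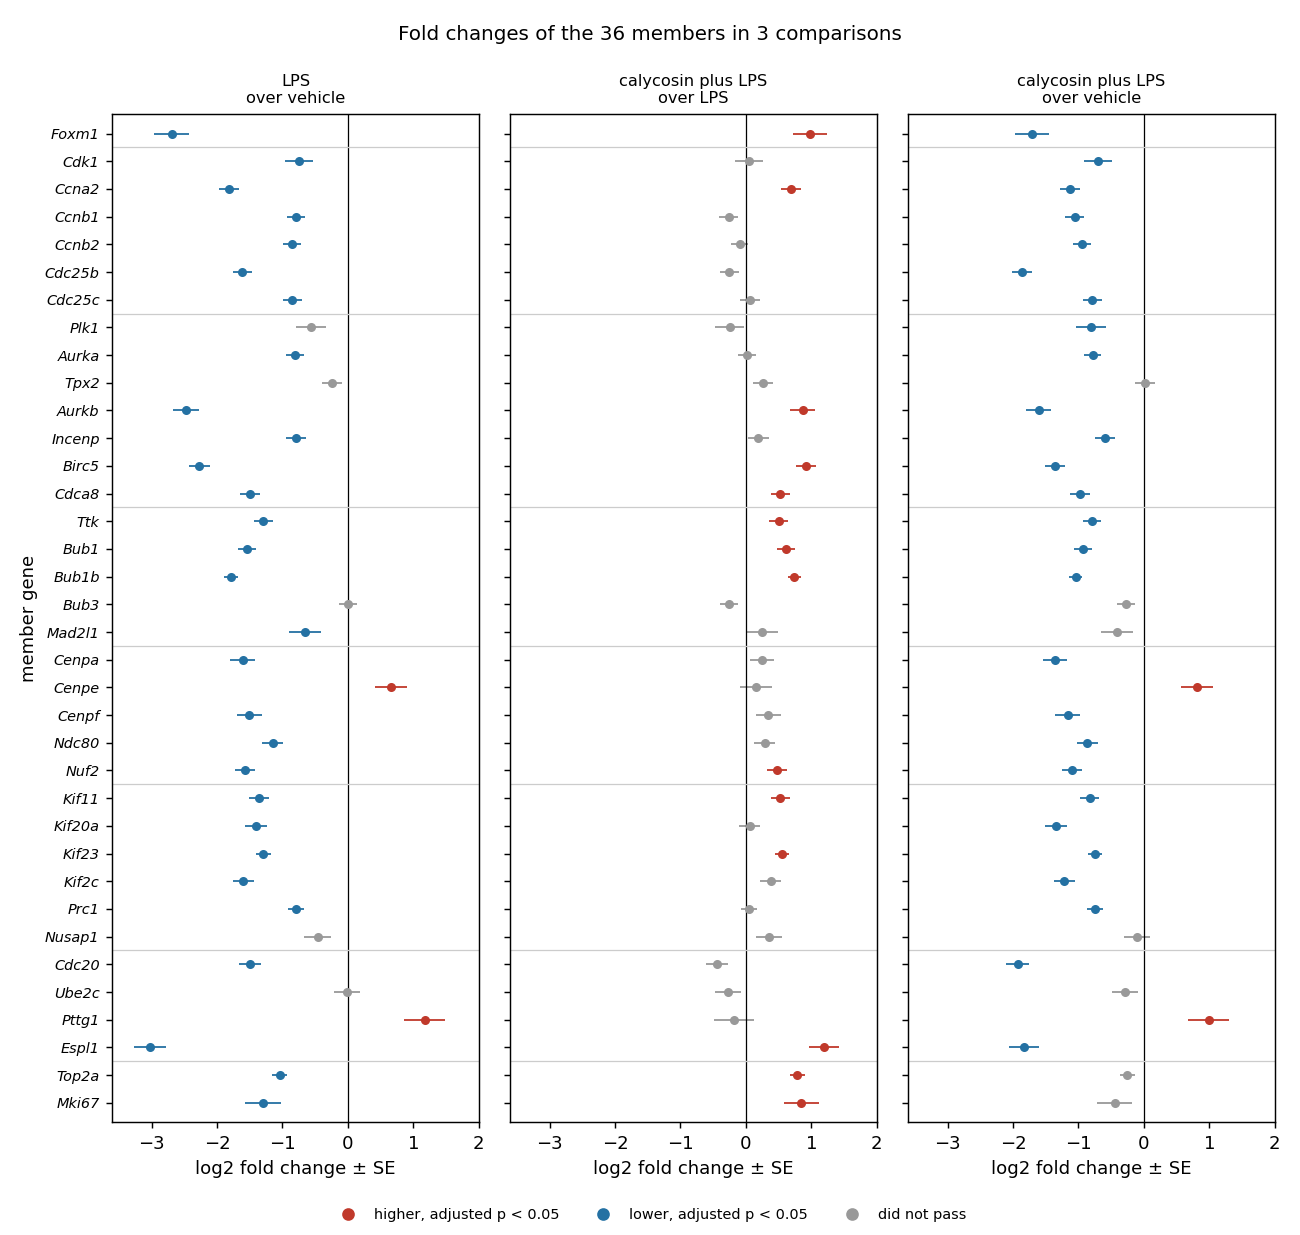
Log2 fold change of each member, with its SE as a bar, in 3 comparisons in separate panels, coloured by whether it passed at an adjusted p below 0.05 (red higher, blue lower, grey did not pass). The left panel runs from -3.02 for Espl1 to 1.17 for Pttg1, the middle panel holds 14 red points and no blue ones, and in the right panel 27 points are blue.

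Of the 14 rises 8 held in each of the 6 fits that left out 1 library of either group: those of Ccna2, Aurkb, Birc5, Bub1, Bub1b, Kif23, Espl1 and Top2a. Foxm1 missed the threshold without LPS replicate 2 or 3 or calycosin plus LPS replicate 2 or 3 (adjusted p = 0.0636, 0.0693, 0.0626 and 0.0579). Mki67 did so without any 1 LPS library or calycosin plus LPS replicate 1 or 3 (0.122, 0.0840, 0.109, 0.108 and 0.123). Cdca8 and Nuf2 did so without LPS replicate 1 or 2 or calycosin plus LPS replicate 2 or 3, with adjusted p up to 0.0878 and 0.138. Ttk did so without LPS replicate 1 or 2 or calycosin plus LPS replicate 1 or 2 (up to 0.0961), and Kif11 without LPS replicate 1 or 2 or calycosin plus LPS replicate 1 or 3 (up to 0.0949). The count of rises in these fits was 8 to 12. It was 19 without both vehicle replicate 3 and calycosin plus LPS replicate 2. There Cenpe, Cenpf, Mad2l1, Ndc80 and Nusap1 were added, and Cdc20 was called lower. Nusap1 was also called higher and Cdc20 lower without vehicle replicate 3 alone. The count of rises was 17 in a fit with a mitochondrial covariate. Only 3 rises (Ccna2, Aurkb and Top2a) held in all 19 alternative fits. Scaling to total counts moved the median of all genes to 0.33 and that of the members to 0.57, with 21 members higher. Ccnb1, Ccnb2, Cdc25b and Plk1 then changed sign, to 0.02, 0.20, 0.06 and 0.04 on the log2 scale, and none of them passed. Among libraries with over 10% mitochondrial counts, which leaves out calycosin plus LPS replicate 2, there were 16 higher members and 1 lower, Cdc20 (log2 fold change -0.51, adjusted p = 0.0257).

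Calycosin plus LPS cells were also compared with vehicle cells, the same libraries that served in the first comparison. Of the 36 members 27 were lower, 2 higher and 7 did not pass, against 23.6% lower and 25.4% higher over all genes tested. The median log2 fold change was -0.85 for the members and -0.005 for all genes tested. In 28 members every calycosin plus LPS library was below every vehicle library and in 1, Pttg1, every one was above, against 27.1% and 29.1% of all genes tested.

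The lowest member was Cdc20 (chromosome 4: 118432901 to 118437352), with 44.1, 50.1 and 33.7 CPM in the vehicle libraries against 9.90, 12.5 and 11.1 CPM. Its fall was 3.81-fold (log2 fold change -1.93, SE 0.17, adjusted p = 1.54e-05). Cdc25b (chromosome 2: 131186949 to 131198497) had 56.4, 57.8 and 53.2 CPM with vehicle, 16.8, 21.8 and 16.2 CPM with LPS and 13.5, 16.9 and 15.5 CPM with calycosin plus LPS. It was 3.64-fold lower than vehicle (log2 fold change -1.86, SE 0.15, adjusted p = 7.23e-06). The means of both genes were under their LPS means, without passing in that comparison, whereas those of Espl1, Foxm1 and Aurkb lay between LPS and vehicle. Their log2 fold changes over vehicle were -1.83 (SE 0.23, adjusted p = 0.000151), -1.71 (SE 0.26, adjusted p = 0.000497) and -1.61 (SE 0.19, adjusted p = 0.000107).

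Ccnb1 was lower than vehicle by a change of -1.06 on the log2 scale (SE 0.14, adjusted p = 0.000262) and Cdk1 by -0.70 (SE 0.21, adjusted p = 0.0219). Plk1, at -0.81 (SE 0.23, adjusted p = 0.0158), passed here and not with LPS alone; the 2 values were -0.81 and -0.56, and their difference, which is the change with calycosin, did not pass. Cdk1 missed the threshold without vehicle replicate 1 or 2 or replicate 1 of calycosin plus LPS (adjusted p = 0.0762, 0.0547 and 0.0820). Of the 27 lower calls 23 held in all 19 alternative fits, the exceptions being Cdk1, Plk1, Cdc25c and Incenp. Plk1 missed the threshold without calycosin plus LPS replicate 1 or 2 (0.0544 and 0.0536). Bub3, not called with all libraries, was lower in edgeR's test without vehicle replicate 3 (adjusted p = 0.0484). Bub3 was also called lower without both that library and calycosin plus LPS replicate 2. Top2a stood at -0.25 (SE 0.12, adjusted p = 0.0953) and Mki67 at -0.44 (SE 0.27, adjusted p = 0.197), and neither passed. Each was called lower in 7 of the 19 alternative fits. For Top2a these included total count scaling (-0.65) and DESeq2 (-0.28, adjusted p = 0.0480). For Top2a all calycosin plus LPS libraries were still below the vehicle libraries, by 171.1 against 160.9 CPM at the nearest point. Mki67 depended on vehicle replicate 3, at 642.1 CPM. Without it and calycosin plus LPS replicate 2 its log2 fold change turned to 0.09 (adjusted p = 0.411), and among libraries with over 10% mitochondrial counts it was -0.90 (adjusted p = 0.00214).

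Pttg1 had 31.8, 40.0 and 17.3 CPM with calycosin plus LPS, with a fold change over vehicle of 0.99 on the log2 scale (SE 0.31, adjusted p = 0.0258). Replicate 3 was barely above the vehicle libraries, the highest of which had 15.7 CPM. Cenpe had 107.6, 75.9 and 119.4 CPM (log2 fold change 0.81, SE 0.25, adjusted p = 0.0214), and overlapped with vehicle replicate 3. Leaving out vehicle replicate 1 or 2 or calycosin plus LPS replicate 1 or 2 ended the Pttg1 call (adjusted p from 0.0607 to 0.0905). So did leaving out both vehicle replicate 3 and calycosin plus LPS replicate 2. Leaving out vehicle replicate 1 or 2 or calycosin plus LPS replicate 1 or 3 ended the Cenpe call (adjusted p from 0.0642 to 0.0781).

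Set side by side, with libraries shared between the comparisons, the members followed 7 patterns. A group of 12 was lower with LPS, higher with calycosin than with LPS alone, and still under vehicle. It held Foxm1, Ccna2, Aurkb, Birc5, Cdca8, Ttk, Bub1, Bub1b, Nuf2, Kif11, Kif23 and Espl1. Top2a and Mki67 shared the first calls but did not pass against vehicle in edgeR's test on all 9 libraries, which does not show them equal to vehicle. Another 14 were lower than vehicle in both LPS groups with no call between them: Cdk1, Ccnb1, Ccnb2, Cdc25b, Cdc25c, Aurka, Incenp, Cenpa, Cenpf, Ndc80, Kif20a, Kif2c, Prc1 and Cdc20. Mad2l1 was called lower in the LPS group and not in the calycosin plus LPS group, and Plk1 the reverse, with no call between the 2 groups for either. In edgeR's test on all 9 libraries Tpx2, Bub3, Nusap1 and Ube2c passed in no comparison, and Cenpe and Pttg1 were higher than vehicle in both LPS groups. Several of these results depended on the fit. With LPS over vehicle, Nusap1 was called lower in 9 of the 19 alternative fits, Tpx2 in 5 and Ube2c in 4. The Cenpe call held in 6 of the 19 and the Pttg1 call in 14. With calycosin plus LPS over vehicle these 2 calls held in 11 and 7. In that comparison Top2a was called lower in 7 of the 19 alternative fits, Mki67 in 7 and Mad2l1 in 8. A member that misses the threshold between LPS and calycosin plus LPS is not shown to be equal: for Cdk1 the estimate was 0.05 with an SE of 0.21.

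Summed by role, in CPM (mean ± SD, n = 3), the cyclins, CDK1 and its phosphatases had 298.6 ± 5.77 with vehicle, 130.8 ± 10.3 with LPS and 137.9 ± 12.3 with calycosin plus LPS. The chromosome proteins had 606.2 ± 203.2, 261.5 ± 21.2 and 464.2 ± 66.5. The checkpoint genes had 332.7 ± 24.8, 192.9 ± 9.71 and 216.6 ± 7.74. In the first sum the 2 LPS groups differed by less than their SD, in the second, most of which was Mki67, by more. Means of the other sums, with LPS and with calycosin plus LPS, went both ways. They were 235.3 and 267.5 for the kinase and passenger genes, and 137.3 and 160.3 for the kinetochore genes. The spindle genes had 124.0 and 153.8, and the anaphase genes 114.0 and 102.7. The coefficient of variation over 3 libraries had a median over members of 13.5% in vehicle, 11.97% in LPS and 11.2% in calycosin plus LPS cells.

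Other genes of cell division were read from 4 lists, given by counts. The shares over all genes tested were 28.9% lower and 27.3% higher with LPS over vehicle. They were 12.9% lower and 16.1% higher with calycosin plus LPS over LPS, and 23.6% lower and 25.4% higher with calycosin plus LPS over vehicle. Of 59 other mitotic genes 51 were lower with LPS, 1 higher and 7 did not pass, with a median log2 fold change of -1.15. The lowest were Cdca5, a protector of cohesion (-3.20), the F-box cyclin gene Ccnf (-2.43) and the kinesin gene Kifc1 (-2.32), and the riser was the kinetochore gene Zwint (1.36). With calycosin plus LPS against LPS 26 of the 59 were higher and the other 33 did not pass, with a median of 0.54. The largest rises were in the kinetochore genes Cenph (1.24) and Cenpn (1.14) and in Kifc1 (1.15). Against vehicle 34 were lower, led by Cdca5 (-2.60), the condensin gene Ncapd2 (-1.58) and the kinesin gene Kif22 (-1.56), and Zwint was higher (1.10).

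Of the 16 regulators of G2/M transcription 6 were lower and 4 higher with LPS, with a median of 0.04. These counts were not far from the 28.9% lower and 27.3% higher over all genes tested. Tfdp2, a partner of E2F factors, changed by -3.52, Mybl2, which encodes B-MYB, by -2.78, and the pocket protein gene Rbl2 by -2.16. The risers were led by the NF-Y subunit gene Nfya (0.96), the MuvB gene Lin9 (0.65) and the pocket protein gene Rbl1 (0.52). With calycosin plus LPS against LPS 7 were higher, led by Rbl2 (1.57), Mybl2 (1.20) and Tfdp2 (0.84), and 1, the MuvB gene Rbbp4, was lower (-0.43). Against vehicle 5 were lower and 5 higher. The lowest were Tfdp2 (-2.68), Mybl2 (-1.59) and Tfdp1 (-1.17), and the highest were E2f5 (0.965), Lin9 (0.83) and Nfyb (0.83).

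Of 17 genes for the anaphase-promoting complex and its direct partners 8 were lower and 3 higher with LPS, with a median of -0.38. The lowest was Fbxo5, which encodes the complex's inhibitor EMI1 (-3.32), followed by the subunit genes Anapc2 (-0.85) and Anapc11 (-0.75), and the highest were Anapc10 (0.95), Cdc27 (0.62) and Anapc4 (0.40). With calycosin plus LPS against LPS Fbxo5 was higher (1.31) and Anapc15 lower (-0.91), and the other 15 did not pass. Against vehicle 6 were lower, led by Fbxo5 (-2.01), Anapc11 (-1.11) and Anapc15 (-1.02), and 3 were higher, Anapc10 (0.81), Anapc4 (0.35) and Cdc16 (0.34).

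Among brakes on mitotic entry, 16 of 17 genes were tested, and 6 were higher and 4 lower with LPS. These counts, too, were not far from the 27.3% higher and 28.9% lower over all genes tested. Plk2, a stress-induced polo-like kinase, rose by 5.22 on the log2 scale, from 13.9 to 520.3 CPM in the group means, Gadd45b by 3.99 and Plk3 by 2.08. Wee1, the kinase that holds CDK1 inactive, fell by 3.62 on the log2 scale, from 26.9 to 2.18 CPM, and the checkpoint kinase genes Chek2 and Chek1 fell by 3.245 and 1.54. With calycosin plus LPS against LPS 6 were higher, led by Wee1 (2.18), Chek2 (1.62) and Chek1 (1.15), and 5 were lower, led by Plk2 (-2.49), Ccng2 (-1.14) and Plk3 (-1.06). Against vehicle 6 were higher, led by Gadd45b (5.14), Plk2 (2.73) and Gadd45g (1.10), and 3 were lower, Chek2 (-1.63), Wee1 (-1.44) and Gadd45a (-0.36).

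Some member counts may include reads of neighbours, because the strand of the libraries is not given in the sources used here. Expressed genes overlap on the other strand at Cdc20 (Elovl1, with a mean of 47.9 CPM), Ccna2 (Exosc9, 36.7 CPM), Kif20a (Cdc23, 32.1 CPM), Cdca8 (9930104L06Rik, 9.47 CPM), Nusap1 (Oip5, 6.58 CPM), Prc1 (Rccd1, 4.76 CPM) and Cdc25b (Spef1, 1.51 CPM). Reads from such pairs cannot be told apart where they overlap. The named pseudogenes Ccnb1-ps and Ccnb2-ps had means of 0.136 and 0.048 CPM. The members lie on 15 chromosomes, with 7 of the 36 on chromosome 2.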

How the data were processed

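Polyadenylated RNA was measured in 9 libraries, and groups were taken from the treatment labels. The authors deposited raw counts, whole numbers for 51826 genes with no sign of normalisation. They also deposited TPM values, scaled for length and depth per the file headers, for 51799 genes. Per the submitters' processing notes, Trimmomatic 0.36, HISAT2 2.0 and StringTie 1.3.3b were used with mm10. How reads were counted, with which annotation release and strand setting, is not given in the sources used here. Positions come from GENCODE M21 (GRCm38). All per-sample columns matched a sample, and no pair of libraries agreed within sampling noise (lowest chi-square per degree of freedom 13.84). That lowest value lay between vehicle replicates 1 and 2, which had 619.96 and 625.14 against vehicle replicate 3. Calycosin plus LPS replicate 2 had 228.51 and 303.49 against replicates 1 and 3, which had 26.56 between them.

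Genes were filtered with filterByExpr, libraries scaled by TMM factors, and all 9 fitted together with edgeR 4.0.16 (R 4.3.3) with a term per group and the two-sided quasi-likelihood test. P was adjusted by Benjamini-Hochberg over the 14458 genes left. Counts carry no molecular identifiers, so intervals cover counting error only. The code was tested on simulated data. Alternatives were DESeq2 1.42.0, limma 3.58.1 on log2(TPM + 1) and log2(TPM + 0.1), other scalings and filters, GC and length offsets, a mitochondrial covariate, a replicate block and leaving out libraries. The members, the lists and the tests were chosen with earlier results of these data known. Foxm1, Cdk1, Ccnb1, Plk1, Top2a and Mki67 are given in full, as are the called members with the 5 largest falls and 5 largest rises in each comparison. Of each list the 3 called genes with the largest fall and the 3 with the largest rise are named. Full per-library values of Bub1b and Mad2l1, and the genes discussed for library effects, were added after their values were seen.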

Additional observations from a re-analysis of the deposited data

How the results depend on the processing

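With LPS over vehicle, members called higher numbered 2. They numbered 1 with no filter on low counts, GC content offset or transcript length offset, 0 in limma on TPM (pseudocounts 1 and 0.1, and no filter), with total count scaling or in libraries above 10% mitochondrial counts, and 1 to 2 with 1 library left out. Genes called higher (3954) came to 1284, 1287 and 1503 in limma on TPM with pseudocount 1, 0.1 and no filter, and to 1879 with total count scaling, where 7744 were lower in place of 4180. In the 3 limma fits 6269, 6229 and 6136 genes were lower. Members called lower (29) came to 33 in each limma fit, which added Plk1, Tpx2, Nusap1 and Ube2c. With the mitochondrial covariate 32 members were lower, with Plk1, Tpx2 and Nusap1 added. For calycosin plus LPS over LPS, members called higher (14) came to 9 and 6 in limma on log2(TPM + 1) with and without the filter, to 8 to 12 with 1 library left out, to 17 with the mitochondrial covariate, 19 without the 2 libraries of unlike mitochondrial share and 21 with total counts. Members called lower (0) came to 1, Cdc20, in DESeq2, with the mitochondrial covariate, without the 2 libraries of unlike mitochondrial share, with either offset and above 10% mitochondrial counts. Genes called higher (2333) came to 1292 and 897 in limma on log2(TPM + 1) with and without the filter. Genes called lower (1871) came to 256, 261 and 300 in the 3 limma fits, 3282 with the covariate, 710 with total counts and 1224 to 1520 with 1 library left out. For calycosin plus LPS over vehicle, members called higher (2) came to 0 in limma and above 10% mitochondrial counts, 1 with the replicate block, without the 2 unlike libraries, with the GC offset and with total counts, and 0 to 2 with 1 library left out. Members called lower (27) came to 31, 31 and 30 in the 3 limma fits and 31 with the covariate. They came to 30 with the length offset, 33 with total counts and 25 to 28 with 1 library left out. Genes called higher (3672) came to 1283, 1268 and 1412 in the 3 limma fits and 2034 with total counts. Genes called lower (3413) came to 5143 with total counts and 1994 above 10% mitochondrial counts. The cause of these differences was not tested.

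Signs turned as follows on the log2 scale, for members that had not passed except Cenpe. With LPS over vehicle, Bub3 (-0.002) was 0.021 with relative log expression scaling and DESeq2, 0.011 with the block, 0.088 with the covariate, 0.11 above 10% mitochondrial counts and -0.135 to 0.115 with 1 library left out. Ube2c (-0.017) was 0.006 with relative log expression and DESeq2, 0.01 with the block, 0.201 without the 2 unlike libraries, 0.266 and 0.032 with the GC and length offsets and -0.183 to 0.201 with 1 left out. Cenpe was -0.13, -0.138 and -0.13 in the 3 limma fits. With calycosin plus LPS over LPS, total counts and the 3 limma fits gave 0.02, 0.031, 0.033 and 0.031 for Ccnb1, 0.202, 0.23, 0.238 and 0.23 for Ccnb2, 0.057, 0.03, 0.03 and 0.03 for Cdc25b, 0.023, 0.054, 0.055 and 0.054 for Ube2c, and 0.152, 0.142, 0.144 and 0.142 for Pttg1 (-0.451 to 0.099 with 1 left out). Total counts gave 0.042 for Plk1 and 0.041 for Bub3. Aurka was -0.029 with relative log expression and DESeq2, -0.001 without the 2 unlike libraries, -0.01 above 10% mitochondrial counts and -0.086 to 0.1 with 1 left out. Cdk1 was -0.068, -0.077 and, with the length offset, -0.012, and -0.086 to 0.22 with 1 left out. Prc1 was -0.002 with the length offset and -0.043 to 0.122 with 1 left out, and Kif20a -0.045 to 0.144. Over vehicle, Tpx2 (0.02) was -0.004 with relative log expression and DESeq2, -0.39, -0.399 and -0.39 in limma, -0.111 with the covariate, -0.029 and -0.068 with the offsets, -0.364 with total counts, -0.182 above 10% mitochondrial counts and -0.072 to 0.124 with 1 left out. Without the 2 unlike libraries Mad2l1, Nusap1 and Mki67 were 0.061, 0.235 and 0.093, and Nusap1 was -0.262 to 0.139 with 1 left out.

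Total count scaling and the libraries above 10% mitochondrial counts were chosen after seeing the data. The deviations of same-numbered libraries had correlations from -0.173 to 0.364, and those of differently numbered libraries from -0.472 to 0.358. Because these ranges overlap, they do not settle whether replicate numbers pair the libraries. With the replicate block 29 members were lower and 2 higher with LPS. Where a fit left 1 library in a group, that library was assumed to vary like the others.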
